A study of Homo sapiens with 12 samples.

Results

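The core genes of the circadian clock, PER1, PER2, PER3, CRY1, CRY2, CLOCK, ARNTL, NR1D1, NR1D2 and BHLHE40, were followed in HepG2 and Ls174 cells with and without HME. The 10 genes were picked by symbol, and the counts of all 3′ regions listed under a symbol were summed, which found all 10 among the 57736 genes of the files, a table in which 27326 genes were counted at least once. HepG2 is a cell line from a human liver cancer and Ls174 is a cell line from a human colon cancer. HME is a methanol extract of the red seaweed Hypnea musciformis. The 4 groups were HepG2 control, HepG2 HME, Ls174 control and Ls174 HME cells, each with 3 biological replicates. The HME groups received the extract at 0.7 mg/ml by the sample labels (the study's methods give a slightly higher concentration), the control groups received none, and all cells were kept for 24 h. The labels describe this dose as growth-inhibiting. The sources used here give no synchronisation of the cultures and no hour of harvest, so the clock phase at which the RNA was taken is not known.

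The clock is a feedback loop of transcription that runs in nearly all cells, with a period of about a day. CLOCK and ARNTL (also named BMAL1) form a dimer that binds E-boxes in promoters and activates the PER, CRY, NR1D and BHLHE40 genes. The PER and CRY proteins return to the nucleus and block that dimer, BHLHE40 (also named DEC1) competes with it at E-boxes, and NR1D1 and NR1D2 (REV-ERBα and REV-ERBβ) repress ARNTL. PER1 and BHLHE40 are also immediate targets of signals from outside the cell, among them cAMP, glucocorticoids, serum and, for BHLHE40, low oxygen. In the liver the loop times the metabolism of glucose, lipids, bile acids and foreign compounds.

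Total counts ran from 1790841 to 3656662 a library, and 3 counts, taken here as the floor, corresponded to between 0.82 and 1.68 counts per 1000000 counted reads (CPM). HepG2 control 2 and Ls174 control 1 lay apart: log2 CPM across tested genes correlated at 0.806 to 0.871 with the other HepG2 libraries and at 0.859 to 0.881 with the other Ls174 libraries, where the other pairs gave 0.897 to 0.957 and 0.954 to 0.979. All 8 hepatocyte markers had counts in every HepG2 library, with a sum of 15200 to 19200 CPM in control and 10700 to 12200 CPM in HME-treated cells, and HNF4A was the 1 of them with over 20 CPM in every Ls174 library. The sums of the 8 colon markers were 383 to 475 CPM in Ls174 and 69.8 to 209 CPM in HepG2 cells. Of those, VIL1 was higher in HepG2 in 5 of 6 libraries than in any Ls174 library, and MUC2 and CEACAM5, which mark goblet and colon cancer cells, lay between 0 and 6.04 CPM in Ls174. Ls174 control 3 held 172 CPM of hepatocyte markers, with ALB (albumin) at 45.1 CPM, and Ls174 HME 1 held 79.8 CPM, against 23.1 to 58.7 CPM in the other Ls174 libraries. HepG2 HME 2 held 1140 CPM of 9 mesenchymal markers, a list added after the values were seen, against 29.9 to 87.7 CPM in the other HepG2 libraries. COL1A1 stood at 551 CPM, COL1A2 at 408 CPM and VIM at 60.8 CPM there, DCN, LUM and PDGFRB were at 0, and 6 of the 9 had a count. For some of the results, the value without HepG2 control 2, HepG2 HME 2 or Ls174 control 1 is given. Ls174 control 3 and Ls174 HME 1 were left out only where any 1 library was left out in turn.

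In HepG2 cells, 5 of the clock repressors were called higher with HME, while PER2, CRY1 and CLOCK were not called and PER3 and ARNTL were too low to be tested. For BHLHE40, the 1 of the 5 with no control library past the filter on low counts (3.83 CPM), the test itself depended on its being high with HME. Every HME library lay above every control library for PER1, CRY1, CRY2, NR1D1, NR1D2 and BHLHE40, a separation in this direction that 15.5% of the 11343 genes tested in HepG2 cells also had. A gene was called where the unadjusted p of edgeR's quasi-likelihood test was under 0.05 and the log2 fold change was beyond 0.58, and 5 of the 8 tested clock genes (BHLHE40, NR1D1, NR1D2, PER1 and CRY2) passed. Over all tested genes 22.2% were called, 11.3% higher and 10.9% lower. The clock genes were chosen with earlier results of these data known, so their counts are descriptive only. BHLHE40 alone passed an adjusted p under 0.05, which 3.31% of all tested genes did. Without HepG2 control 2 and HepG2 HME 2 together, PER1, NR1D2 and BHLHE40 passed the adjusted threshold and CRY2 was no longer called. In RNA of whole cultures, a higher level per cell and a larger share of cells that express a gene cannot be told apart.

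**Figure D1:**
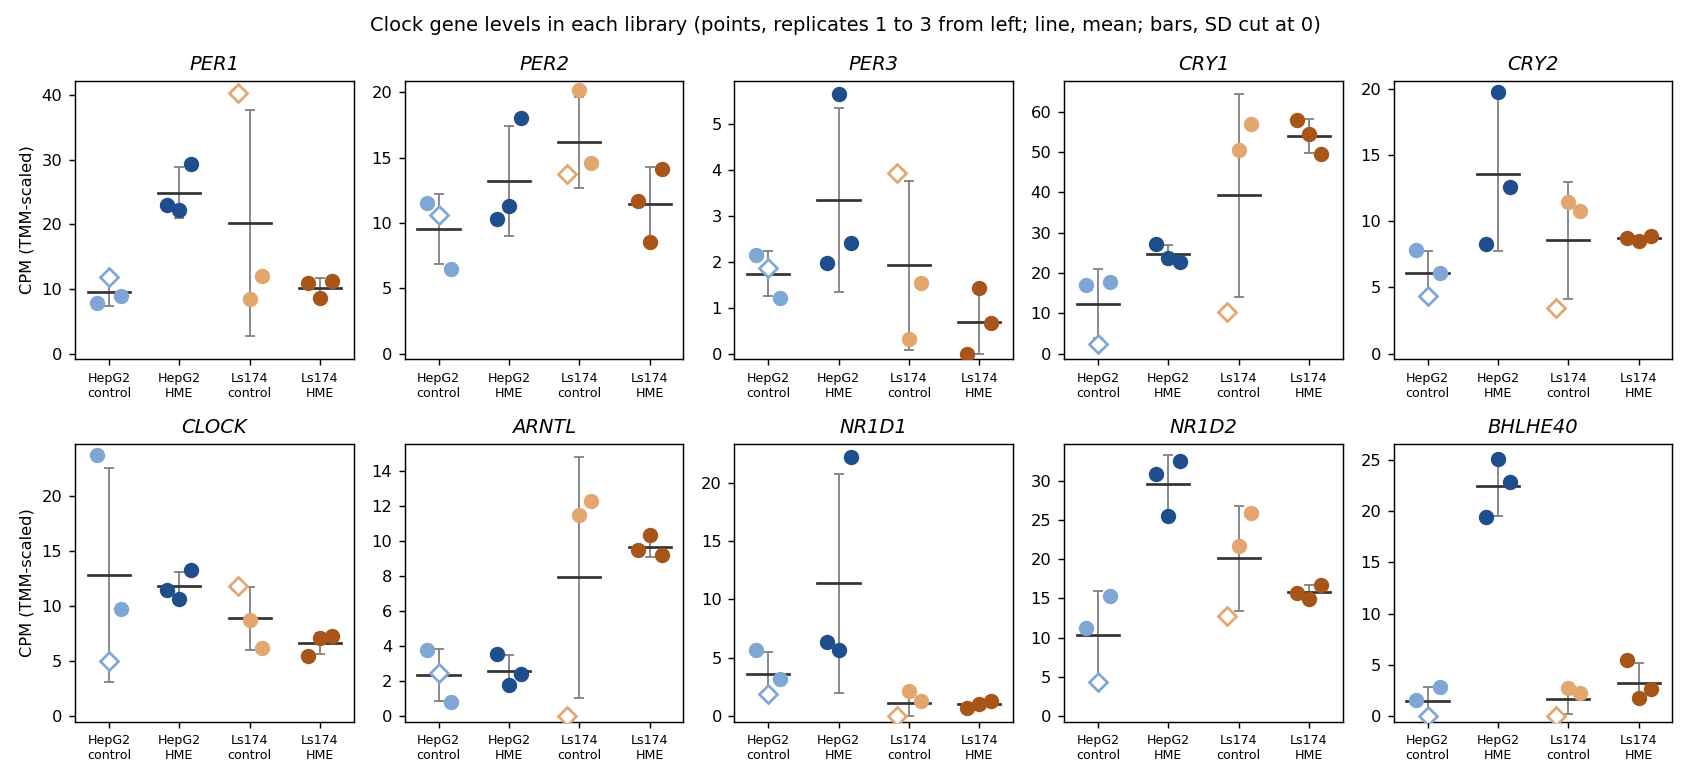
Level of each clock gene in the 12 libraries, in CPM scaled by the trimmed mean of M values (TMM), with the 4 groups on the horizontal axis. Points are libraries with replicates 1 to 3 from left to right, open diamonds are HepG2 control 2 and Ls174 control 1, lines are means and bars are SDs cut at 0. BHLHE40 lay between 19.4 and 25.1 CPM in HME-treated HepG2 cells and at or under 5.46 CPM in every other library, and CRY1 and ARNTL were lowest in HepG2 cells and in Ls174 control 1.

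BHLHE40, the E-box repressor, changed most. Its counts in HepG2 cells were 6, 0 and 7 in controls 1 to 3 and 49, 71 and 38 with HME, which corresponded to 1.61, 0 and 2.83 CPM and to 19.4, 25.1 and 22.8 CPM. The control libraries thus lay at or near the floor and the HME libraries well above them. The mean rose from 1.48 ± 1.42 to 22.4 ± 2.87 CPM (SD, n = 3 each), and the fitted log2 fold change was 3.78 (SE 0.59, 95% interval 2.46 to 5.11, adjusted p = 0.0102 by edgeR). Its adjusted p was 0.0559 without HepG2 HME 3, the one library whose removal brought it above the adjusted threshold of 0.05, and 0.00188 without HepG2 control 2 and HepG2 HME 2 together.

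PER1, which responds to cAMP and glucocorticoid signals, stood at 7.80, 11.8 and 8.89 CPM in the HepG2 controls and at 23.0, 22.3 and 29.4 CPM with HME. All 3 HME libraries were higher than the highest control. The log2 fold change of PER1 was 1.41 (SE 0.36, 95% interval 0.61 to 2.20), a rise from 9.51 ± 2.09 to 24.9 ± 3.95 CPM (SD, n = 3 each) that was called, with an adjusted p of 0.0638. Without HepG2 control 2 the adjusted p of PER1 was 0.0150, and with any 1 HepG2 library left out it ran from there to 0.235. PER2, its close relative in the same complex, stood at 11.6, 10.6 and 6.47 CPM in controls and 10.3, 11.3 and 18.0 CPM with HME. These groups overlapped, and the log2 difference of PER2 was 0.46 (95% interval -0.47 to 1.39, adjusted p = 0.547). Of its counts, 81.8% in HME-treated HepG2 cells and 96.1% in controls fell in its main region, and with that region alone the log2 difference was 0.22. PER3 had 3 to 8 counts in the control and 4 to 16 counts in the HME libraries and was not tested, since only HepG2 HME 2, at 5.66 CPM, passed the filter.

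The cryptochromes, which bind the CLOCK and ARNTL dimer together with the PER proteins, were both separated between the groups. CRY2 stood at 7.80, 4.36 and 6.06 CPM in HepG2 controls and at 8.31, 19.8 and 12.6 CPM with HME, its highest value being in HepG2 HME 2. Its log2 fold change was 1.15 (SE 0.45, unadjusted p = 0.0295, adjusted p = 0.180), and without HepG2 HME 2 it was 0.78 (unadjusted p = 0.173). The call of CRY2 thus rested on the library with collagen RNA. CRY1 stood at 16.9, 2.49 and 17.8 CPM in controls and at 27.3, 23.7 and 22.8 CPM with HME, so that HepG2 control 2 was far below all others. The log2 difference of CRY1 was 0.98 (95% interval -0.19 to 2.14, adjusted p = 0.298), or 0.57 without HepG2 control 2.

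NR1D2, a nuclear receptor that represses ARNTL, stood at 11.3, 4.36 and 15.4 CPM in the HepG2 controls and at 30.9, 25.4 and 32.4 CPM with HME. The groups were separated by a wide gap. Its mean was 10.3 ± 5.56 CPM in controls and 29.6 ± 3.66 CPM with HME (SD, n = 3 each), the log2 fold change was 1.51 (SE 0.42, 95% interval 0.57 to 2.44), and the adjusted p was 0.0808, or 0.0379 without HepG2 control 2. With any 1 HepG2 library left out, the adjusted p of NR1D2 by edgeR ran from 0.0379 to 0.247. NR1D1, its paralog with the same function, stood at 5.65, 1.87 and 3.23 CPM in controls and at 6.33, 5.66 and 22.2 CPM with HME. Of the HME libraries, only HepG2 HME 3 was well above the controls, and the lower pair barely exceeded control 1. The log2 fold change of NR1D1 was 1.56 (SE 0.65, unadjusted p = 0.0380, adjusted p = 0.197), and without HepG2 HME 3 it was 0.70 (adjusted p = 0.615). The 1 region of NR1D1, chr17:38248843-38249335 on the minus strand, shares 235 bases with a region of THRA, a thyroid hormone receptor gene on the plus strand, and the sources used here do not give the strand setting of the counting. THRA stood at 16.3 ± 2.20 CPM with HME and 18.2 ± 11.1 CPM without in HepG2 cells (SD, n = 3 each), and at 58.8 to 87.2 CPM in Ls174 cells, in which NR1D1 was between 0 and 2.17 CPM.

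No change was called for the activators. CLOCK, the partner of ARNTL, stood at 23.7, 4.98 and 9.70 CPM in HepG2 controls and at 11.5, 10.6 and 13.2 CPM with HME. The controls were more spread than any difference between the groups. The log2 difference of CLOCK was -0.15 (95% interval -1.28 to 0.99, adjusted p = 0.889), and it was 0.65 without HepG2 control 1. ARNTL, the partner of CLOCK in the dimer, had 14, 4 and 2 counts in controls and 9, 5 and 4 counts with HME, or 2.35 ± 1.48 and 2.58 ± 0.91 CPM (SD, n = 3 each), and did not pass the filter in HepG2 cells.

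**Figure D2:**
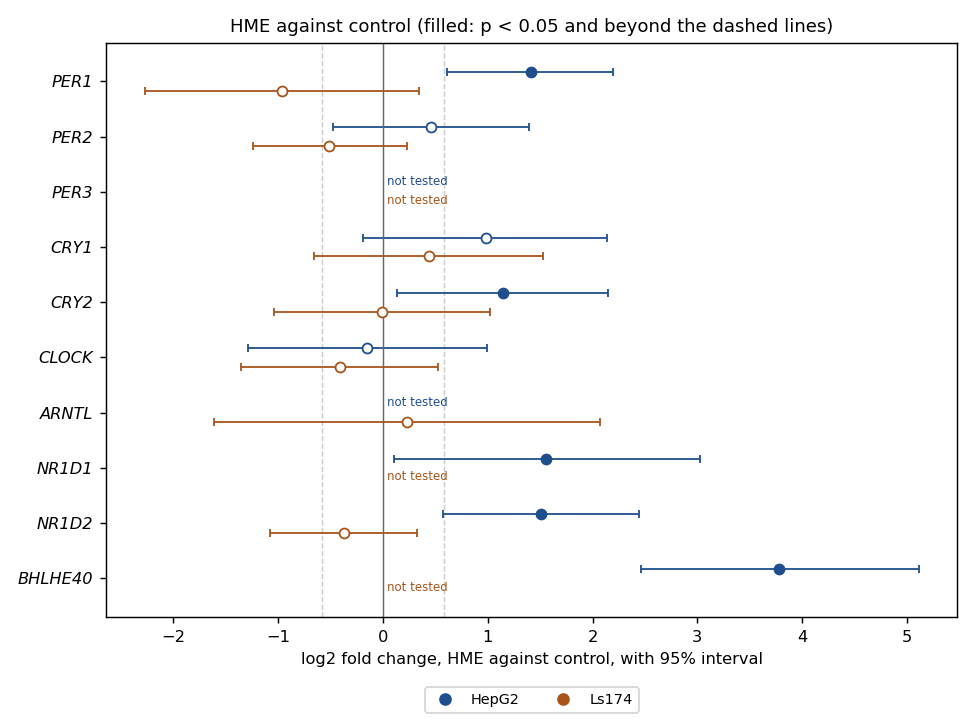
Log2 fold change of each clock gene with HME against control, in HepG2 and in Ls174 cells, with 95% intervals from edgeR. Filled points have p under 0.05 and lie beyond a log2 fold change of 0.58 in either direction (dashed lines). The filled points are BHLHE40, NR1D1, NR1D2, PER1 and CRY2 in HepG2 cells, and none is filled in Ls174 cells.

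In Ls174 cells no clock gene was called, where 4.11% of the 11319 genes tested there were called higher and 7.85% lower. None of the 7 tested clock genes passed an adjusted p under 0.05, as 1.18% of all tested genes did, none had an unadjusted p under 0.05, and DESeq2 gave 0 at either rule, while a binomial test on summed counts, which leaves out the spread between replicates, gave 4 at the adjusted threshold and 1 call. Nor did the HME libraries of any clock gene lie all above the controls, which 11.6% of all tested genes did. PER1 stood at 40.3, 8.38 and 12.03 CPM in Ls174 controls and at 10.9, 8.53 and 11.2 CPM with HME, so that Ls174 control 1 was the high library. Its log2 difference was -0.96 (95% interval -2.27 to 0.35, adjusted p = 0.50), and it came to -0.00 without that library. PER2 was at 13.8, 20.2 and 14.6 CPM in controls and 11.7, 8.53 and 14.1 CPM with HME, which overlapped (log2 difference -0.51, 95% interval -1.24 to 0.23).

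CRY1, the most counted clock gene of this line, stood at 10.3, 50.6 and 56.8 CPM in the Ls174 controls and at 57.9, 54.4 and 49.6 CPM with HME. Ls174 control 1 again stood apart, this time low. The log2 difference of CRY1 was 0.44 (95% interval -0.66 to 1.53), and 0.01 without that library. ARNTL was at 0, 11.5 and 12.3 CPM in controls and at 9.47, 10.3 and 9.20 CPM with HME, with the same library at 0 and the others close together. NR1D2 was at 12.8, 21.7 and 25.9 CPM in controls and at 15.7, 14.9 and 16.8 CPM with HME, a log2 difference of -0.37 (95% interval -1.07 to 0.33) that reached -0.59 with a call (adjusted p = 0.123) once Ls174 control 1 was left out. CRY2 stood at 8.56 ± 4.45 CPM in controls and 8.72 ± 0.171 CPM with HME, and CLOCK at 8.88 ± 2.83 and 6.60 ± 0.986 CPM (SD, n = 3 each). The log2 differences were -0.01 (95% interval -1.04 to 1.02) and -0.41 (95% interval -1.35 to 0.53). NR1D1, BHLHE40 and PER3 did not pass the filter in Ls174 cells: NR1D1 had at most 7 counts, PER3 at most 8 and BHLHE40 at most 15 in a library. BHLHE40 stood at 0, 2.79 and 2.30 CPM in Ls174 controls and at 5.46, 1.78 and 2.63 CPM with HME. The highest value was in Ls174 HME 1, which held 79.8 CPM of hepatocyte markers. Ls174 control 3, with BHLHE40 at 2.30 CPM, held 172 CPM of these markers. A part of RNA from other cells in these values was not tested.

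To test whether the lines differed in their response, the log2 fold change in Ls174 was subtracted from that in HepG2 in 1 fit of all 12 libraries. PER1 gave a difference of 2.35 (SE 0.69, 95% interval 0.87 to 3.83, unadjusted p = 0.00417), NR1D2 of 1.84 (SE 0.55, 95% interval 0.66 to 3.01, unadjusted p = 0.00464) and BHLHE40 of 2.95 (95% interval 0.64 to 5.27, unadjusted p = 0.0161). These 3 of the 9 tested clock genes had an unadjusted p under 0.05, as 13.2% of all 13040 genes tested did. None passed the adjustment over all genes in edgeR, as 0.644% did, where the adjusted p was 0.159 for PER1, 0.163 for NR1D2 and 0.246 for BHLHE40. With DESeq2, 1 clock gene, NR1D2, passed. Without HepG2 control 2 and Ls174 control 1, the difference passed for NR1D2 (1.73, adjusted p = 0.0161) and BHLHE40 (2.98, adjusted p = 0.0368), while that of PER1 was 1.55 (adjusted p = 0.0589). The remaining tested genes had intervals that included 0, from NR1D1 at 1.80 (95% interval -0.67 to 4.28) and CRY2 at 1.13 (95% interval -0.29 to 2.56) to ARNTL at -0.15 (95% interval -2.72 to 2.42). Past the filter of its line, BHLHE40 had 3 HME and 0 control libraries in HepG2 and 1 library in Ls174. NR1D1 had 3 HME libraries and 1 control library in HepG2 and 0 in Ls174. The entry of both genes into this fit thus depended on the HepG2 HME libraries, in which they are high.

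The other genes of the pathway were described by a list of 47 genes that act on the clock or are driven by it, all of which the files hold. The list was chosen with earlier results of these data known, so its counts are descriptive only. In HepG2 cells 41 of them were tested, 15 were called higher and 2 lower, and 6 passed an adjusted p under 0.05, where of all genes tested in this line 11.3% were called higher, 10.9% lower and 3.31% passed the adjusted threshold. The median log2 fold change was 0.35 for the list and -0.04 for all tested genes. A group of 11 genes was listed as inputs to the PER genes. These genes carry cAMP and glucocorticoid signals, feed back on them or are induced by them. Of the 11, 6 were called higher and 1 lower, again against 11.3% and 10.9% of all tested genes. TSC22D3, a glucocorticoid-induced leucine zipper gene, stood at 2.69, 1.87 and 2.42 CPM in HepG2 controls and at 13.5, 13.1 and 18.6 CPM with HME, with no overlap. Its log2 fold change was 2.65 (SE 0.43, adjusted p = 0.0118), but all 3 controls lay under the filter of 3.83 CPM, so TSC22D3 was tested in this line only through the HME libraries in which it is high. CREM, a cAMP-responsive factor, went from 8.43 ± 5.70 to 39.1 ± 7.46 CPM (SD, n = 3 each; log2 fold change 2.18, adjusted p = 0.049975). SIK1, a kinase that feeds back on cAMP signalling, CRTC2 and SIK3 were called higher at log2 1.60, 1.25 and 0.82, CREB1 at 0.77, and CRTC1, a coactivator of CREB1 that was tested only through its control libraries, lower at -1.45. The other genes of this group, CRTC3, SIK2, NR3C1 and FKBP5, were not called in HepG2 cells. Of these, NR3C1, the glucocorticoid receptor gene, gave 0.12 (adjusted p = 0.892 by edgeR). FKBP5, which encodes a cochaperone of that receptor, gave 0.15 (adjusted p = 0.837 by edgeR).

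Among the outputs and loop partners, NFIL3, a repressor that competes at D-boxes, stood at 40.1, 14.3 and 36.8 CPM in HepG2 controls and at 163, 152 and 162 CPM with HME. All HME libraries lay far above the controls, and the log2 fold change of NFIL3 was 2.40 (SE 0.39, adjusted p = 0.0116). The activators of the same D-boxes were not called: TEF gave -1.48 (adjusted p = 0.241), HLF gave -0.29 (adjusted p = 0.577) and DBP was not tested, at 1.37 ± 0.972 CPM in controls and 0.768 ± 0.406 CPM with HME (SD, n = 3 each). Only 2 genes, WEE1 and NAMPT, were listed as clock-controlled outputs, so they do not stand for clock outputs in general. WEE1, a kinase that holds cells before mitosis, rose from 26.6 ± 6.45 to 80.6 ± 6.09 CPM (log2 fold change 1.61, adjusted p = 0.0213), and NAMPT, the enzyme that makes the NAD+ precursor, rose from 18.2 ± 8.21 to 61.0 ± 18.3 CPM (log2 fold change 1.74, adjusted p = 0.0497; SD, n = 3 each). SIRT1, the NAD+-dependent deacetylase that acts on PER2 and ARNTL, rose from 8.63 ± 3.10 to 31.9 ± 8.17 CPM (SD, n = 3 each; log2 fold change 1.89, adjusted p = 0.0303). RORA, which activates ARNTL where NR1D1 represses it, was called higher at log2 1.76 (adjusted p = 0.0672), and TIPIN, a replication-fork partner of TIMELESS, lower at -1.32 (adjusted p = 0.120). CSNK1D, CSNK1A1 and CSNK2A1, kinases of the PER proteins or their partners, were called higher at log2 1.18, 1.10 and 0.73, and PPARGC1A, a coactivator of metabolic genes, at 1.09. CSNK1A1 stood at 129, 95.3 and 116 CPM in HepG2 controls and at 154, 432 and 139 CPM with HME, the high value being in HepG2 HME 2, the library with collagen RNA. Without that library the log2 difference of CSNK1A1 was 0.40 (unadjusted p = 0.308), and without its regions that overlap another gene it was 0.10 (unadjusted p = 0.845), so that it was called in neither case. Of the 17 called genes of the list, NFIL3, SIRT1, CREM, TSC22D3, WEE1, NAMPT, RORA and SIK1 stayed called when any 1 library was left out and the other 9 did not, and without HepG2 control 2 and HepG2 HME 2 together CSNK1A1, PPARGC1A and CRTC1 were no longer called. The adjusted calls of NFIL3, SIRT1, CREM, TSC22D3, WEE1 and NAMPT were each lost when at least 1 single library was left out, and all 6 were kept without HepG2 control 2 and HepG2 HME 2 together.

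**Figure D3:**
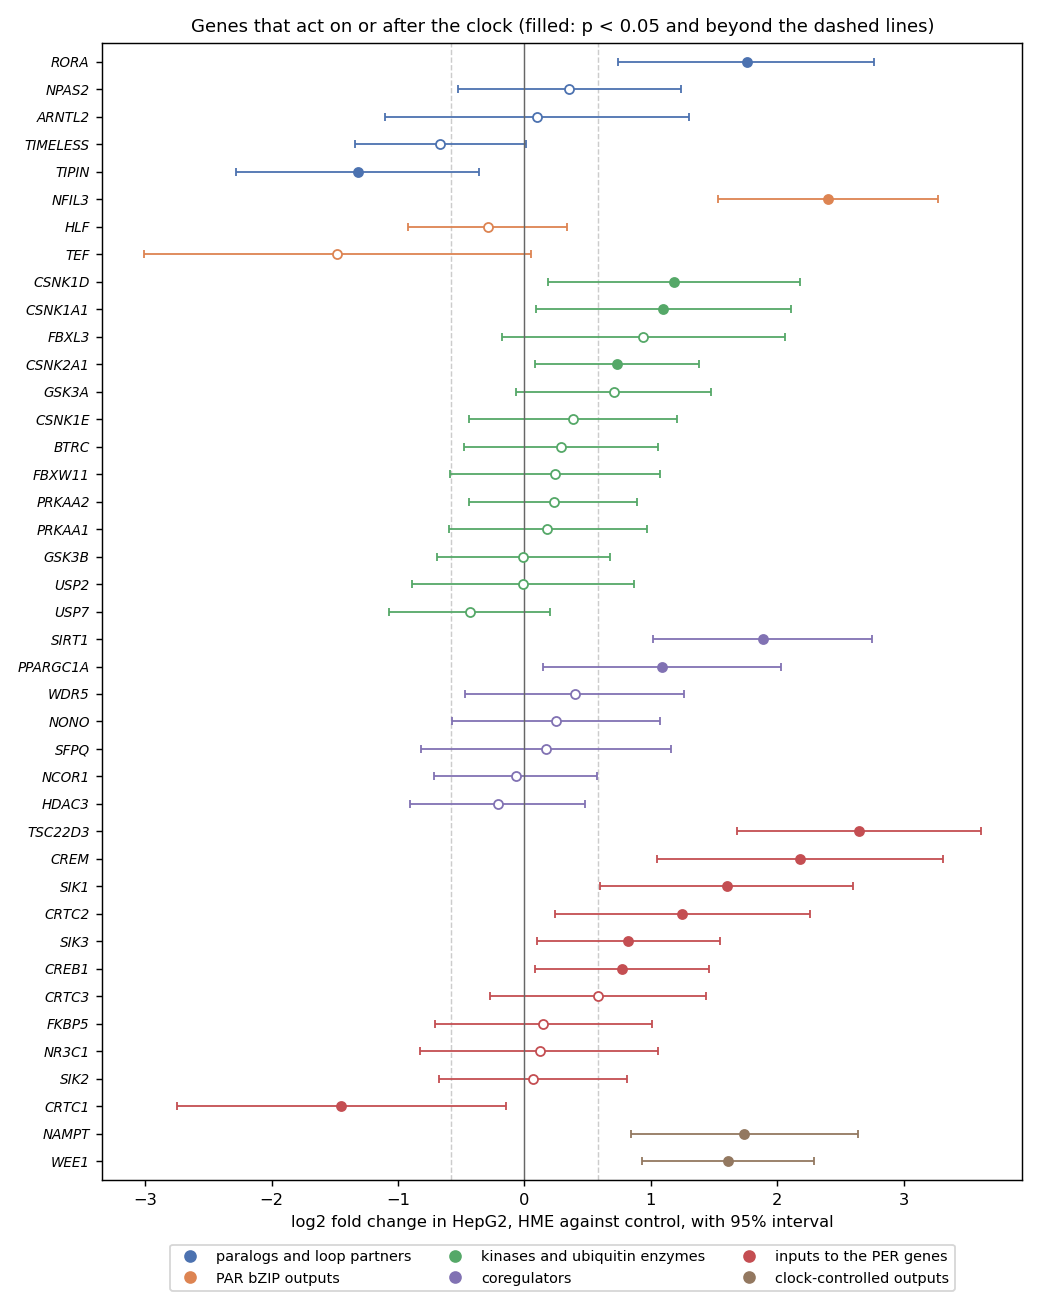
Log2 fold change in HepG2 cells, HME against control, of the 41 tested genes of the list, with 95% intervals from edgeR and colours for their roles. Filled points have p under 0.05 and lie beyond a log2 fold change of 0.58 (dashed lines), which were 15 genes above 0, led by TSC22D3 at 2.65 and NFIL3 at 2.40, and TIPIN and CRTC1 below 0.

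In Ls174 cells 35 of the 47 genes were tested, TSC22D3 was called higher and FKBP5, a glucocorticoid receptor cochaperone, was called lower, that is 1 gene in each direction, where 4.11% and 7.85% of all tested genes were called. TSC22D3 stood at 17.2, 18.3 and 21.5 CPM in Ls174 controls and at 44.1, 41.2 and 42.7 CPM with HME, again with no overlap (log2 fold change 1.15, SE 0.21, adjusted p = 0.0468, a threshold that 1.18% of all tested genes passed). NR3C1 had 0 counts over the Ls174 controls and 1 count over the HME libraries of that line. The median of the list was -0.03 on the log2 scale. Of the 44 genes of the list tested for a difference between the lines, 12 had an unadjusted p under 0.05, against 13.2% of all genes, and 1 passed the adjustment, against 0.644%. WEE1 was the gene whose response differed between the lines at an adjusted p under 0.05 (difference 1.86, SE 0.37, adjusted p = 0.0339), since in Ls174 cells it stood at 43.2 ± 5.80 CPM without and 35.6 ± 4.83 CPM with HME (SD, n = 3 each).

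With HME, the lines held different levels of most clock genes. The same 3 and 3 HME libraries enter here as above, so these values are not a separate measurement of the response. Of the 9 tested clock genes, 7 differed between HME-treated HepG2 and Ls174 cells at an adjusted p under 0.05, as did 54.6% of all 11914 genes tested. NR1D1 was higher in HepG2 by 3.32 on the log2 scale (SE 0.67, adjusted p = 0.00159), BHLHE40 by 2.78 (SE 0.38, adjusted p = 0.000103), PER1 by 1.29 (SE 0.25, adjusted p = 0.00132) and NR1D2 by 0.92 (SE 0.22, adjusted p = 0.00443). CRY1 was lower in HepG2, with a log2 difference of -1.11 (SE 0.19, adjusted p = 0.000550), and so was ARNTL, at -1.87 (SE 0.38, adjusted p = 0.00165). NR1D1 and ARNTL were tested here only through the line in which each is high, the other line having no library past the filter of 3.67 CPM, and BHLHE40 had 1 such library in Ls174. CLOCK was higher by 0.83 (adjusted p = 0.0344), which failed the threshold whenever any 1 library was left out. PER2 and CRY2 gave 0.19 (95% interval -0.52 to 0.90) and 0.67 (95% interval -0.10 to 1.44). When all 12 libraries shared 1 estimate of the spread, which includes the scattered controls, BHLHE40, NR1D1 and PER1 remained and CRY1, ARNTL, NR1D2 and CLOCK did not.

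Without HME, none of 7 tested clock genes differed between the lines at an adjusted p under 0.05, and none had an unadjusted p under 0.05, against 23.5% of 11907 genes at the adjusted threshold of edgeR. DESeq2 also gave 0 and the binomial test 7. CRY1 gave -1.62 on the log2 scale (95% interval -3.29 to 0.06, adjusted p = 0.156), ARNTL -1.71 (95% interval -4.13 to 0.72), PER1 -1.04 (95% interval -2.46 to 0.38) and NR1D2 -0.92 (95% interval -2.08 to 0.24), all lower in HepG2. With HepG2 control 2 and Ls174 control 1 left out, 4 passed: CRY1 at -1.61 (adjusted p = 0.000331), ARNTL at -2.22 (adjusted p = 0.00510), NR1D2 at -0.83 (adjusted p = 0.0460) and CLOCK at 1.23 (adjusted p = 0.0379). PER1 then gave -0.29 (adjusted p = 0.592). For NR1D2 the order of the lines in these libraries, HepG2 below Ls174 without HME, was the opposite of that in HME-treated cells.

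**Figure D4:**
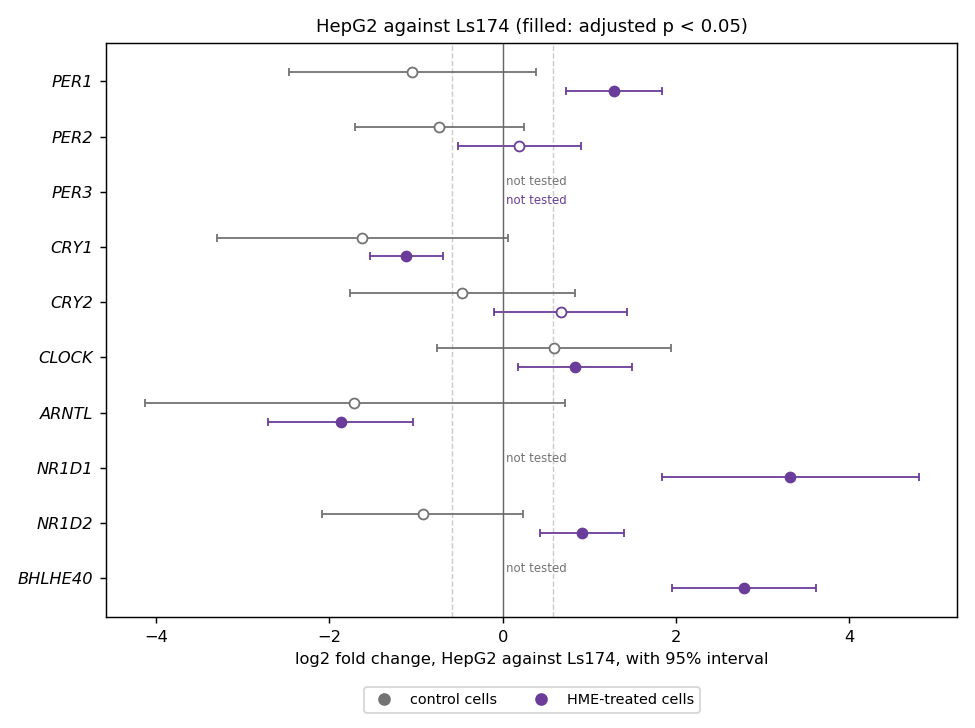
Log2 fold change of each clock gene in HepG2 against Ls174 cells, without HME and with HME, with 95% intervals from edgeR. Filled points have an adjusted p under 0.05, which are 7 genes in HME-treated cells, with CRY1 and ARNTL lower in HepG2, and none in control cells.

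Ordered by mean level over the groups, PER1 was highest in HME-treated HepG2 cells (24.9 CPM), followed by Ls174 control (20.2 CPM), Ls174 HME (10.2 CPM) and HepG2 control cells (9.51 CPM). Only the first stood apart from its own line's other group, since Ls174 control cells ranged from 8.38 to 40.3 CPM. NR1D2 ran in the same order, from 29.6 through 20.1 and 15.8 to 10.3 CPM. For BHLHE40 the HME-treated HepG2 cells at 22.4 CPM were followed by 3.29, 1.70 and 1.48 CPM in Ls174 HME, Ls174 control and HepG2 control cells, which overlapped one another. CRY1 ran the other way, from 54.0 and 39.3 CPM in Ls174 HME and control cells to 24.6 and 12.4 CPM in HepG2 HME and control cells, and ARNTL from 9.66 and 7.92 to 2.58 and 2.35 CPM.

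Most counts of each clock gene came from its last region, with the lowest shares over the 12 libraries in PER3 (76.7%) and PER2 (91.5%). On hg19, 99.4% of the PER1 counts fell in chr17:8043593-8044658 (minus strand), 96.8% of those of BHLHE40 in chr3:5025378-5027205 (plus strand), 99.8% of those of NR1D2 in chr3:24018714-24022306 (plus strand) and 100% of those of CRY1 in chr12:107384945-107385779 (minus strand). These regions lie at the 3′ ends of the genes, where the library kit primes. PER3 was the most spread, with 76.7% in chr1:7902816-7905434 (plus strand), a region that covers one of UTS2 on the minus strand, which had 0 counts in all 12 libraries.

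The genes whose pattern was most like that of each called clock gene were sought over the 12 libraries by the root mean square difference of log2 CPM after centring on the mean of each line. For BHLHE40 these were AQP3, at a difference of 0.387, and PCK1, at 0.447, where the deviation of BHLHE40 from its own line means was 1.53. AQP3, a glycerol channel gene, stood at 8.79 ± 3.77 CPM in HepG2 controls and 131 ± 35.2 CPM with HME, and PCK1, the enzyme that commits carbon to glucose synthesis, at 8.47 ± 4.10 and 135 ± 45.6 CPM (SD, n = 3 each). For NR1D2 they were SASH1 (0.196) and SLC2A1 (0.205), a glucose transporter gene at 103 ± 50.0 CPM in controls and 251 ± 15.5 CPM with HME (SD, n = 3 each). For PER1 they were LHFPL2 (0.217) and BRPF1 (0.283), for CRY2 LZTFL1 (0.191) and ELK1 (0.202), and for NR1D1 FZD6 (0.268) and CBX8 (0.349).

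To show what the promoters of these genes hold, the 250 bases before each start site in RefSeq (GRCh38.p14, a later build than that of the counts) were searched on both strands for the E-box CACGTG, the weaker E′-box CACGTT, the D-box TTANGTAA, the receptor core site AGGTCA that NR1D and ROR proteins share, and the cAMP element TGACGTCA. All 10 genes had a window there, ARNTL as BMAL1, and 5 of them had 2, giving 15 windows. The E-box was found in PER1, BHLHE40 and 1 window of NR1D2, that is in 3 of the 15 windows, and in 6.34% of all 35116 windows. The E′-box was found in PER2, CRY1, NR1D1, CRY2 and CLOCK (5 of the 15 windows, and 4.55% of all windows). The D-box was found in PER3 and NR1D2 (2 of the 15, and 1.98%), and AGGTCA in PER1 and CRY2 (3 of the 15, and 12.1%). None held TGACGTCA, which 1.65% of all windows did. Only these exact letters within 250 bases were sought, so a gene without a match can hold a variant site or one further away. NR1D1 and CRY2, also called in HepG2 cells, held an E′-box and no E-box, as did PER2, CRY1 and CLOCK, which were not called. A link between these motifs and the response to HME was not tested. The E-box windows of PER1, NR1D2 and BHLHE40, the 3 clock genes with the smallest p in HepG2 cells, are printed 5′ to 3′ on the strand of the gene with the matches in capitals. They span chr17:8152405-8152654 (minus strand) for PER1, chr3:23945871-23946120 (plus strand) for NR1D2 and chr3:4979187-4979436 (plus strand) for BHLHE40.
PER1: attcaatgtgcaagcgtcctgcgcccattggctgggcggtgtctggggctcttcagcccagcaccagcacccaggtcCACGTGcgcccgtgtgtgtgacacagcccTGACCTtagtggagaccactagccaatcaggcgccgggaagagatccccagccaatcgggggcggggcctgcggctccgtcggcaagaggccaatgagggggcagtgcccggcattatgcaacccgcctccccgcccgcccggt
NR1D2: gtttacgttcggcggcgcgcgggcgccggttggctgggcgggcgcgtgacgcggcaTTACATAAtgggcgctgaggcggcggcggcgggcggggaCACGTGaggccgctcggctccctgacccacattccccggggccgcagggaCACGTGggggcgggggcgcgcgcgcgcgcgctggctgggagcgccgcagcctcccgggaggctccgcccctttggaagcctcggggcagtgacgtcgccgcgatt
BHLHE40: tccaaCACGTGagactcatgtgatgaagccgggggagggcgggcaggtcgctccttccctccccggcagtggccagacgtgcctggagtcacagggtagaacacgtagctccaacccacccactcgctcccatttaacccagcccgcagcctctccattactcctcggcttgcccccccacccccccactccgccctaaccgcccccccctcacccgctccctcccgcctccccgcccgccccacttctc
In PER1 the capitals mark the E-box from base -173 and an AGGTCA match on the opposite strand from base -144, counted from the start site. In NR1D2 they mark a D-box from base -194 and E-boxes from bases -155 and -105, and in BHLHE40 an E-box from base -245. A match of letters is not evidence that a protein was bound there in these cells.

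**Figure D5:**
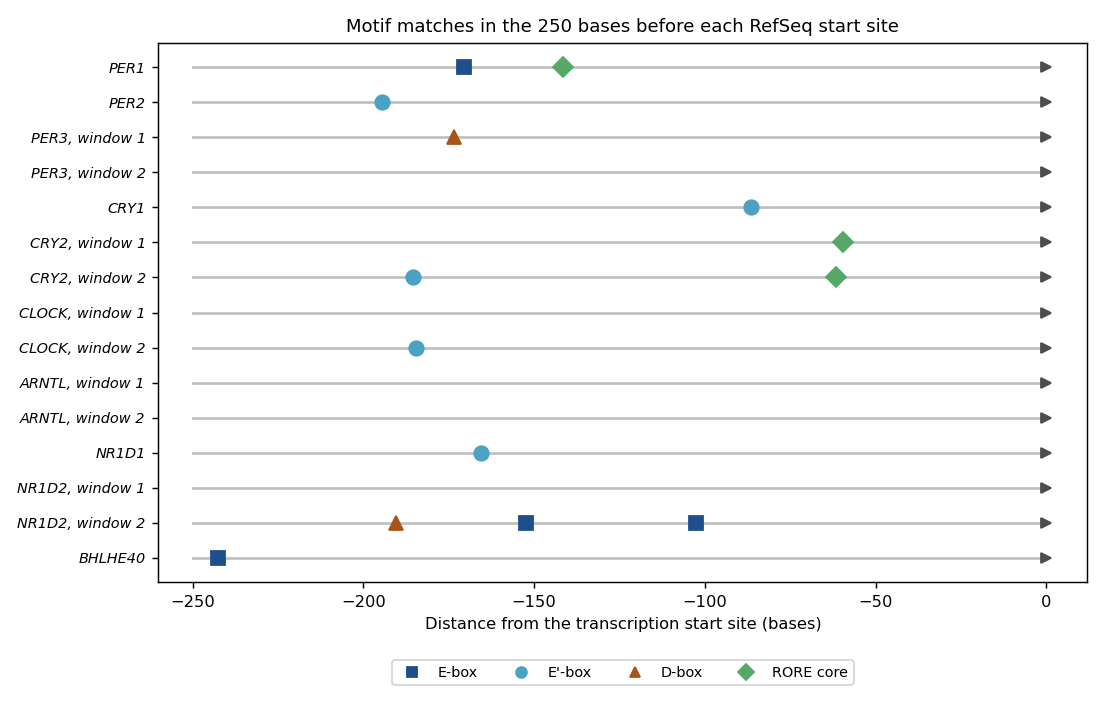
Positions of motif matches in the 15 RefSeq promoter windows of the 10 clock genes, with the distance from the start site in bases on the horizontal axis and 1 line per window. Squares are E-boxes, circles E′-boxes, triangles D-boxes and diamonds AGGTCA matches. NR1D2 was the one gene with a pair of E-boxes, both in its second window.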

How the data were processed

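RNA of 12 cultures was sequenced. The authors made 3′ libraries with a QuantSeq kit on an Ion Proton instrument, checked reads with FASTQC, aligned them to hg19 (GRCh37) with Hisat2 and counted them with metaseqR2, and the deposited tables hold counts per 3′ region with no normalization. The submitters' processing notes also name Trimmomatic and Bowtie2. Versions and the handling of strand and of reads with several alignments are not given in the sources used here. Because reads come from transcript ends, CPM was not divided by length.

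Counts of all 144910 regions were summed per gene. Depth was 1790841 to 3656662 counts a library. Floors cover counting error only.

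The quasi-likelihood F test of edgeR 4.0.16 in R 4.3.3 (two-sided) was run after TMM scaling and a filter on low counts (filterByExpr), and was fitted to all genes of the 6 libraries of a line, of the control or HME libraries of both lines, or of all 12 for the difference between lines, with Benjamini-Hochberg adjustment over all tested genes. SEs were derived from the F statistic. Levels are CPM with TMM over 12 libraries, and likeness between genes was taken on log2 CPM (prior count 2). Python 3.11.15, pandas 2.3.3, numpy 2.4.6 and matplotlib 3.10.9 made tables and figures. The fit was tested on simulated data. Samples were grouped by the labels. Replicates are called biological in the labels.

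The genes named are the 10 clock genes, called genes of the 47-gene list, overlapping genes, the 2 nearest genes of each called clock gene and the markers. The members and lists were chosen with earlier results of these data known. Alternatives were DESeq2 1.42.0, a binomial test, other scalings and filters, a replicate block, 1 fit of all libraries, other sets of regions, and leaving out libraries. Fits without several libraries together and the mesenchymal markers were added after seeing the data. Other assays of the study were not analysed here.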

Additional observations from a re-analysis of the deposited data

Results flagged for a closer look

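PER1, NR1D2 and BHLHE40 differed in their response to HME between the lines by the test of the interaction at an unadjusted p under 0.05. The log2 fold change in HepG2 cells exceeded that in Ls174 cells by 2.35 for PER1 (unadjusted p = 0.00417), by 1.84 for NR1D2 (unadjusted p = 0.00464) and by 2.95 for BHLHE40 (unadjusted p = 0.0161). None of the 3 passed the adjustment over all genes by edgeR (adjusted p = 0.159, 0.163 and 0.246). All 3 HME libraries of HepG2 lay above all 3 controls for each of these genes, and the groups of Ls174 overlapped. For PER1 the difference was 1.41 to 2.73 when 1 library was left out, and Ls174 control 1, which held 40.3 CPM of PER1 against 8.38 and 12.03 CPM in the other controls of its line, set the lowest value. BHLHE40 was tested in this fit at 18 counts over the Ls174 controls and 28 counts over the HME libraries of that line. Its entry into the fit depended on the HepG2 HME libraries, in which it is high.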

How the results depend on the processing

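In HepG2 cells, the number of clock genes at an adjusted p under 0.05, 1 in edgeR, was 3 with DESeq2, 7 with the binomial test, 3 with genes of at least 1 count, 0 of those with at least 10 counts in every library, 2 in 1 fit of all 12 libraries, 3 without HepG2 control 2 and HepG2 HME 2 together, and 0 to 3 with 1 library left out. The number called, 5, was 3 with library size scaling, 1 with at least 10 counts in every library and 3 to 5 with 1 library left out. The filter of at least 10 counts left BHLHE40, NR1D1, NR1D2 and CRY2 untested in HepG2 cells. Of the called genes of the list, it left RORA, TIPIN, CREM, CRTC1, CRTC2, SIK1 and TSC22D3 untested. The number of called genes of the list, 17, was 10 with at least 10 counts in every library, and 11 to 18 with 1 library left out. In Ls174 cells, where none passed, the binomial test gave 4 clock genes at the adjusted threshold and 1 call, at least 1 count gave 1 call, and leaving out 1 library gave 0 to 1. The 2 called genes of the list became 1 with DESeq2, upper quartile scaling, the replicate block or 1 fit of all 12 libraries, 5 with the binomial test, and 1 to 5 with 1 library left out.

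For the difference between the lines in response, where none passed, 1 did with DESeq2, 1 with at least 1 count, and 2 without HepG2 control 2 and Ls174 control 1, with or without HepG2 HME 2 as well. Between control cells of the lines, where none passed, 7 did with the binomial test, 1 with at least 1 count, 1 in 1 fit of all 12 libraries, 4 without the same pair of controls, and 0 to 2 with 1 library left out. Between HME-treated cells, 7 became 4 with at least 10 counts in every library and 3 in 1 fit of all 12 libraries, and 6 to 7 with 1 library left out. The cause was not tested, except that fewer clock genes are tested under the stricter filter.

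Directions turned for CLOCK, CRY2, ARNTL and PER2. With HME in HepG2 cells, CLOCK was 0.09 on the log2 scale with the replicate block and between -0.47 and 0.65 with 1 library left out. In Ls174 cells, CRY2 was 0.01 with DESeq2 and with upper quartile scaling, 0.12 with the block, 0.02 with the most counted region alone and between -0.34 and 0.24 with 1 library left out, and ARNTL was between -0.29 and 0.66. In the difference between the lines, CLOCK was -0.41 without HepG2 control 2 and Ls174 control 1 and -0.34 without HepG2 HME 2 as well, ARNTL was 0.33 and 0.58, and with 1 library left out CLOCK was between -0.15 and 1.00 and ARNTL between -0.58 and 0.43. Between control cells CLOCK was between -0.19 and 0.96 with 1 library left out. Between HME-treated cells PER2 was -0.17 with the binomial test, -0.10 with library size scaling and between -0.06 and 0.36 with 1 library left out. Library size scaling moved the median of all genes in HepG2 from -0.04 to -0.20. Of 388 values of single clock genes under alternatives other than leaving out 1 library, 331 kept their direction and their side of the adjusted threshold.

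Same-numbered control and HME replicates did not deviate together (correlations of -0.15, 0.073 and -0.116 in HepG2 and -0.039, 0.006 and -0.06 in Ls174 cells), so the numbers were not taken as pairs, and the replicate block left BHLHE40 as the 1 clock gene at the adjusted threshold in HepG2 cells. With 3 replicates and under 100 counts a library for most clock genes, changes well under the width of the intervals could not be seen.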

Other observations

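Ls174 control 1, one of the libraries that lay apart, had 0 counts of ARNTL, NR1D1 and BHLHE40, 21 counts of CRY1 and 82 counts of PER1, where Ls174 controls 2 and 3 had 37 and 48 counts of ARNTL, 163 and 222 of CRY1 and 27 and 47 of PER1. In HepG2 control 2, CRY1 had 4 counts and BHLHE40 had 0, where HepG2 controls 1 and 3 had 63 and 44 counts of CRY1 and 6 and 7 of BHLHE40. PER1 was the highest of its group in both of these libraries, at 11.8 CPM in HepG2 control 2 and 40.3 CPM in Ls174 control 1.

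HepG2 controls had 88, 8 and 24 counts of CLOCK, the widest spread of that gene in any group, at 23.7, 4.98 and 9.70 CPM. In Ls174 cells the HME libraries were closer together than the controls for several clock genes: CRY1 had an SD of 4.17 CPM with HME and 25.2 CPM without, and ARNTL 0.579 and 6.87 CPM. Ls174 control 1 was the low control for both genes. In HepG2 cells the SD was smaller with HME for CRY1, CLOCK, ARNTL and NR1D2. It was larger with HME for PER1, PER2, PER3, CRY2, NR1D1 and BHLHE40. For CLOCK it was 1.33 CPM with HME and 9.71 CPM without, and for NR1D1 9.37 and 1.91 CPM.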
